A study of Mus musculus with 13 samples.

Results

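DRIP-seq peaks on mouse chromosomes 8 and 15 of N2a cells are described here. N2a (Neuro2A) is an established mouse neuroblastoma line. The members are all peaks listed on chr8 or chr15 in 12 peak lists, 43527 of 314412 peaks, with 23763 on chr8 and 19764 on chr15. The 9 lists of untreated DNA held 40624 of these peaks and the 3 lists of RNase H-digested DNA held 2903. Both chromosomes were selected on their number of peaks per annotated gene start in these same lists, so their density is given as a description with no test, and it supports nothing further.

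The cells had been transfected with scramble siRNA (siScramble), siRNA against DDX1 (siDDX1) or siRNA against EXOSC3 (siEXOSC3), with 3 untreated libraries and 1 RNase H-digested library per group. All groups were of this 1 tumour line, and all carried a transfected siRNA. Per the study's methods, a group's biological replicates were grown from separately seeded plates, so that p-values measure the spread between cultures of 1 line. DDX1 is a DEAD-box RNA helicase, and EXOSC3 is a structural subunit of the RNA exosome, the complex that trims and degrades RNA from its tail end. Peak names and sample titles gave different treatments in all 12 lists. Under the title siScramble the peaks were named siDDX1, under siDDX1 they were named siEXOSC3, and under siEXOSC3 they were named siScramble. Groups follow the titles and are called labelled groups, and the direction of any difference between groups depends on which label is right.

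An R-loop is a stretch where nascent RNA pairs with its template DNA strand and leaves the other DNA strand single. R-loops are common at active genes, above all at CG-rich promoters and transcript ends. In DRIP-seq the S9.6 antibody pulls down DNA held in such hybrids, and RNase H removes the RNA of a hybrid, so that peaks left after RNase H are a background to the method. MACS2 calls a peak where reads of the pull-down exceed the level anticipated from an input library, and tumour lines such as N2a often carry extra copies of chromosomes or arms. The lists hold peak calls only and no direct count of DNA copies. The part that copy number has in any value here was not tested.

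Untreated lists held between 23882 and 42571 peaks and RNase H lists between 3811 and 8034. The number of peaks on a chromosome therefore moved with the library, and comparisons between libraries use shares or ratios within a library. Read depth is not listed, but the reads at a summit and the background under it were recovered for at least 99.5% of the peaks of each list from the fold and the p-value. All coordinates are of mouse build mm9.

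The sequence at some of the gene starts in the results is shown first, as the 200 bases before each annotated start with every CG in capitals. Rpl13 and Atf4 had some of the highest peaks of chr8 and chr15, Tubb3 and Myc are genes used by neuroblastoma cells, and the starts of Krt5 and Cdh1, genes of epithelia, had no peak in any untreated library.
Rpl13 promoter, chr8:125626050-125626249, strand +: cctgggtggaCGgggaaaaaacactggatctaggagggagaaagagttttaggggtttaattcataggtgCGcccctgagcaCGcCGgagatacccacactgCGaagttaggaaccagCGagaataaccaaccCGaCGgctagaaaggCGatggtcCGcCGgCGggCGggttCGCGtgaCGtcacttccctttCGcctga
Tubb3 promoter, chr8:125935124-125935323, strand +: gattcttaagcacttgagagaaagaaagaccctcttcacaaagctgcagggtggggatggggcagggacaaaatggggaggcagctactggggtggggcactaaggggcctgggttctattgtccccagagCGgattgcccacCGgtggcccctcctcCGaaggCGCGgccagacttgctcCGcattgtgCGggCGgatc
Atf4 promoter, chr15:80085414-80085613, strand +: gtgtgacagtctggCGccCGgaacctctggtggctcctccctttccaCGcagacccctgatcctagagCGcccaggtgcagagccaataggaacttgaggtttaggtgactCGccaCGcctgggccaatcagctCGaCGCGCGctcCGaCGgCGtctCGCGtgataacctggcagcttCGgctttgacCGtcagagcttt
Myc promoter, chr15:61816746-61816945, strand +: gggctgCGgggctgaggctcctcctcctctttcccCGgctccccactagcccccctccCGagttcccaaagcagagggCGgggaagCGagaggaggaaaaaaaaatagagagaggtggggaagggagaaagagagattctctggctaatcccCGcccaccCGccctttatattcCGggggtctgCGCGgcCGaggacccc
Cdh1 promoter, chr8:109127051-109127250, strand +: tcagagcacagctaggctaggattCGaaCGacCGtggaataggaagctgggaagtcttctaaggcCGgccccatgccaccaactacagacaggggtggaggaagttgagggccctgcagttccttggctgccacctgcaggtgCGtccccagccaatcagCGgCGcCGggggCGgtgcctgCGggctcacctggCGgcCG
Krt5 promoter, chr15:101543323-101543522, strand -: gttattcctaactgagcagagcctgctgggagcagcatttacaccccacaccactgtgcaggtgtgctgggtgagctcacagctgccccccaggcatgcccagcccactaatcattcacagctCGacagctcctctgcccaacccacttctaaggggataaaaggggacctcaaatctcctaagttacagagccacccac

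The Rpl13 and Atf4 stretches each held 17 CG, a number that 22.2% of all protein-coding promoter windows reached. Myc held 11 CG and Tubb3 held 8. The 200 bases before Jund, the highest start of chr8 and not shown above, held only 3 CG, a number that 72.1% of windows reached. The merged region at Jund, chr8:73222046-73227061, began downstream of these 200 bases, so their CG do not describe the sequence under the peak. Krt5 held 1 CG, but Cdh1 held 12 and still had no peak, so the number of CG did not sort these starts by itself. Over all protein-coding starts of chr8, the median was 16 CG at the 188 starts with a peak in 9 of 9 untreated libraries and 5 CG at the 595 starts with none. On chr15 the medians were 15 CG at 146 starts and 5 CG at 440 starts, and on the 17 other autosomes they were 15 and 4. At like CG content, a larger share of starts had a peak in all libraries on these chromosomes. Both were chosen on peaks per start in these same lists, so this is a description only. Of starts with 20 or more CG, 33.8% on chr8 and 31.5% on chr15 had one, against 23.6% on the other autosomes, and of starts with 0 to 4 CG, 5.34% and 5.75% had one against 2.74%.

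The highest peaks left after RNase H digestion were of another kind. The strongest region of each chromosome is shown by 200 bases of its middle.
RNase H region chr8, chr8:15519830-15520029, strand +: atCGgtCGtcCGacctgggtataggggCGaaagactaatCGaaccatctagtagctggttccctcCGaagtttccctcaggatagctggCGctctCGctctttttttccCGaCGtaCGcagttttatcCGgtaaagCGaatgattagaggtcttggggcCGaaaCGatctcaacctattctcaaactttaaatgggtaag
RNase H region chr15, chr15:18330117-18330316, strand +: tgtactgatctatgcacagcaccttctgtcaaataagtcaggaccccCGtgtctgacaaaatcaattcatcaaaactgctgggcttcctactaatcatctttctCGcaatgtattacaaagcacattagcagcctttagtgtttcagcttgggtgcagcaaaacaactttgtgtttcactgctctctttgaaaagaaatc

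The chr8 stretch lay between genes and held 15 CG. Its letters are those of the large ribosomal RNA, an identity given as background and not matched to a reference here. The chr15 stretch, also between genes, held 2 CG. The middle 50 bases of each had 1 exact copy in mm9.

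Chr15 and chr8 had the most untreated peaks per annotated start of all 19 autosomes in each of the 9 libraries, with chr15 first and chr8 next every time. On chr8 the number of peaks per start was 1.16, 1.64 and 1.85 in the libraries labelled siScramble, 1.78, 1.15 and 1.39 in those labelled siDDX1, and 1.29, 1.40 and 1.96 in those labelled siEXOSC3. On chr15 it was 1.47, 1.98 and 2.14 in siScramble, 2.08, 1.35 and 1.73 in siDDX1, and 1.55, 1.74 and 2.27 in siEXOSC3. The labelled groups overlapped on both chromosomes, and libraries with many peaks in all were high on both. The means were 1.51 ± 0.303 on chr8 and 1.81 ± 0.322 on chr15, against 0.894 ± 0.211 for the mean of the 17 other autosomes (SD, n = 9). Just outside the choice of chromosomes lay chr11 and chr10, each at 1.22.

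**Figure D1:**
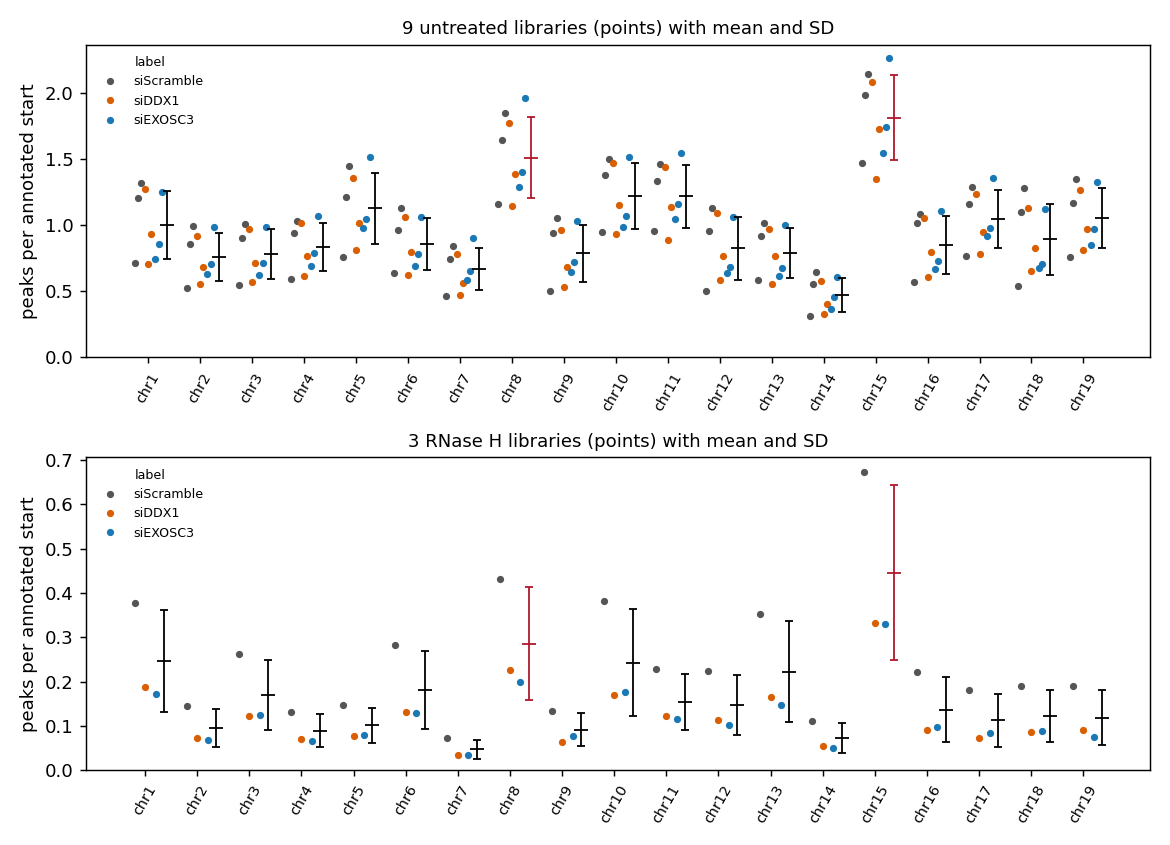
Peaks per annotated gene start on the 19 autosomes, in 9 untreated libraries (top) and 3 RNase H libraries (bottom). Points are libraries coloured by label, and bars are the mean and SD, drawn in red for chr8 (mean 1.51 untreated) and chr15 (1.81), the highest of the 19 in both panels.

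The excess depended on what density was set against. Chr8 held 1643 annotated starts on 124.8 Mb of known sequence and chr15 held 1119 on 100.4 Mb, with 1082 and 797 protein-coding starts. Within a library, peaks per annotated start were 1.71 ± 0.0832 times the mean of the other autosomes on chr8 and 2.06 ± 0.151 times on chr15. Per protein-coding start the ratios were 1.62 ± 0.0792 and 1.80 ± 0.133, and chr11 came near at 2.18 peaks per coding start against 2.30 on chr8. Per Mb of known sequence they were 1.52 ± 0.0639 and 1.55 ± 0.104, and there chr11, at 30.3 peaks per Mb, was far above chr15 (20.2) and chr8 (19.9). Only the counts per start put both chromosomes ahead of all others.

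The additional peaks lay in every class of sequence. Peaks within 1 kb of a start were 1.52 ± 0.0833 times as dense per Mb of such sequence on chr8 as on the other autosomes, and 1.52 ± 0.117 times on chr15. In exons the ratios were 1.57 ± 0.0575 and 1.57 ± 0.190, and in introns 1.67 ± 0.0919 and 1.73 ± 0.124. Between genes chr15 stood out more, at 1.92 ± 0.156 times, than chr8, at 1.45 ± 0.124 times (SD, n = 9 in each). Of 19 autosomes, chr8 ranked 1 to 2 at starts, 1 to 3 in exons, 2 to 3 in introns and 3 to 5 between genes. Chr15 ranked 1 to 3, 1 to 5, 2 to 3 and 2 in the same classes. Other autosomes were thus denser in introns and between genes. Of the peaks of chr15, 11.1% ± 1.38 lay at a start, the lowest share of all autosomes, against 15.2% ± 2.04 for the mean of the others.

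Single peaks were about as high on these chromosomes as elsewhere. The fold of a peak is its read pile-up at the summit over the background there, with 1 added to each. Pile-ups are small whole numbers, so that medians of fold can tie between chromosomes. Median fold on chr8 was 5.86, 5.66 and 5.57 in siScramble, 5.24, 5.53 and 5.83 in siDDX1, and 5.81, 5.64 and 6.41 in siEXOSC3. On chr15 it was 5.86, 5.84 and 5.76, then 5.21, 5.63 and 5.83, and then 5.86, 5.64 and 6.41. Against all peaks of the 17 other autosomes in the same library, the median fold was 1.012 ± 0.0150 times on chr8, above 1 in 4 of 9 libraries, and 1.02 ± 0.0253 times on chr15, above 1 in 5 of 9. The values lay close to 1 on both chromosomes. The median number of reads at the summit ran from 9 to 13 on chr8 and from 10 to 14 on chr15, 1.10 ± 0.0563 and 1.17 ± 0.0419 times the mean of the other autosomes. Peaks were also wider, with a median of 560 bases ± 37.3 on chr8 and 594 bases ± 38.4 on chr15 against 518 bases ± 32.4. Chr11 was close to both, with a median width of 580 bases and medians of 9 to 13 reads at the summit.

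The background under the peaks was higher. MACS2 takes the larger of a genome-wide level, here called the floor, and the local level, which per the study's methods came from the input. In untreated libraries the floor ran from 0.544 to 1.29 fragments, so the 1 added to the background weighed heavily in the fold. The median background under untreated peaks was 1.18 ± 0.0314 times the floor on chr8 and 1.46 ± 0.0316 times on chr15, against 1.02 ± 0.00540 times for the mean of the 17 other autosomes (SD, n = 9). It was above 1 on chr8 and chr15 in 9 of 9 libraries. Of untreated peaks, 61.8% to 75.2% on chr8 and 86.5% to 90.9% on chr15 lay on a background above the floor, with means of 66.8% and 88.6%. The mean of the other autosomes was 37.9%, with chr11 (65.6%) and chr13 (62.7%) highest and chr14 (20.4%) lowest. Chr13 shared the raised background but not the density, with 1.24 untreated peaks per coding start against a mean of 1.43 for the others.

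Across the 19 autosomes, peaks per coding start rose with the share of peaks above the floor (Pearson 0.82, Spearman 0.74), and RNase H peaks per Mb did so more closely (Pearson 0.96, Spearman 0.95). Without chr8 and chr15 the Pearson values were 0.66 and 0.92 over 17 chromosomes. For peaks per annotated start the Pearson value was 0.78 over 19 autosomes and 0.51 without chr8 and chr15. Along each chromosome, peaks per annotated start in 1 Mb windows hardly followed the share above the floor. The Pearson value was 0.13 over 101 windows of chr8 and 0.14 over 82 of chr15, and Spearman was -0.030 and 0.051. These correlations are a description, since all chromosomes share the same libraries and the same input.

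**Figure D2:**
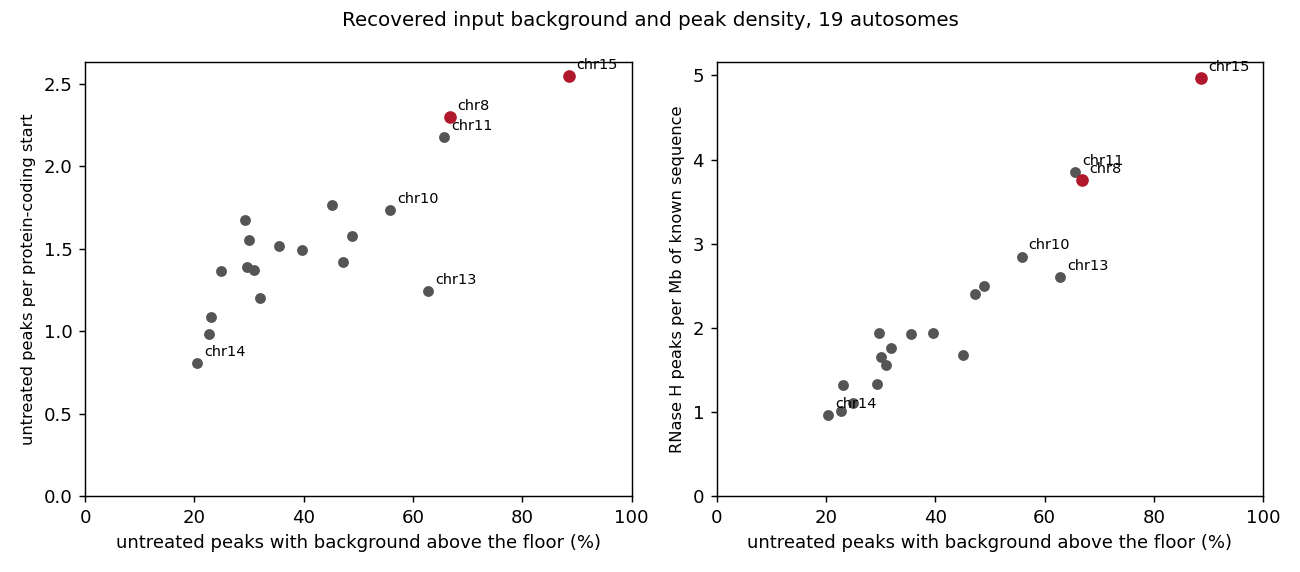
Share of untreated peaks whose background lay above the floor (x axis, %, mean of 9 libraries) against untreated peaks per protein-coding start (left, mean of 9) and RNase H peaks per Mb of known sequence (right, mean of 3), with 1 point per autosome. Chr8 (66.8%) and chr15 (88.6%), in red, lie at the upper right of both panels, and chr13 lies at a like share (62.7%) with 1.24 peaks per coding start.

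Peaks were spread unevenly along both chromosomes. In windows of 1 Mb that hold a start, the median was 1.02 untreated peaks per start on chr8 and 1.08 on chr15, against 0.485 on the other autosomes. Of these windows, 60.3% on chr8 and 64.9% on chr15 lay above the median of the others. Chr19 was above both (66.7%), and chr10 (61.5%), chr11 (61.9%) and chr17 (61.1%) were above chr8. The upper end differed more. There 26.4% of windows on chr8 and 32.0% on chr15 lay above the level that 10% of the other windows passed, 1.89 peaks per start. The next highest chromosome at that level was chr13 at 16.4%. The number of peaks in a window followed the number of annotated starts (r = 0.75 over 125 windows of chr8 and 0.82 over 100 windows of chr15, a description across windows of the same libraries). The 10 densest windows held 38.6% of the peaks of chr8 and 48.0% of those of chr15, while 20 and 15 windows had no untreated peak in any library. The longest runs without a peak were chr8:53000001-55000000, with 2 coding starts, and chr15:20000001-25000000, with 3, where RNase H libraries nevertheless had 8 peaks on average.

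**Figure D3:**
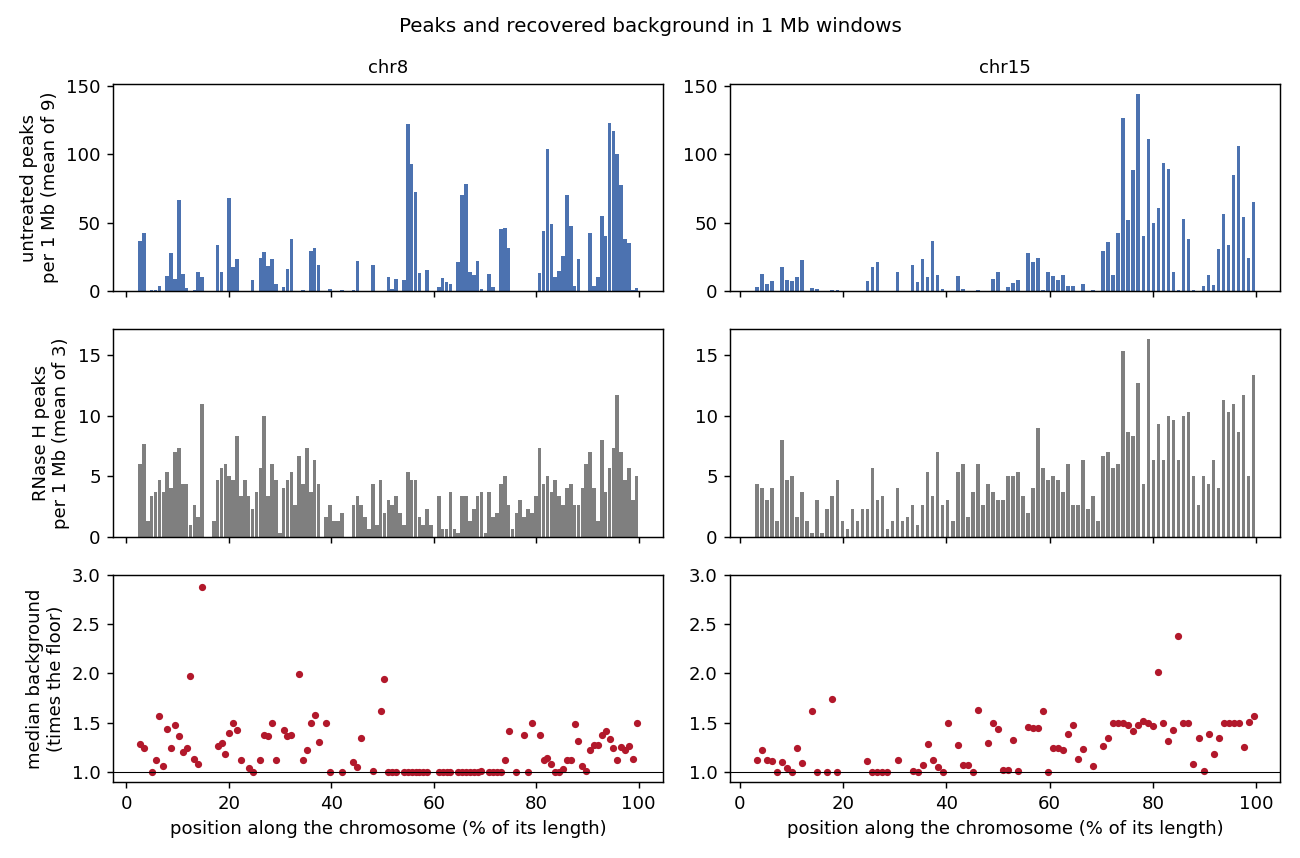
Untreated peaks per 1 Mb window (top, mean of 9 libraries), RNase H peaks (middle, mean of 3) and median background under untreated peaks in multiples of the floor (bottom, line at 1), by position in percent of the length of chr8 (left) and chr15 (right). Peaks gather toward the distal end of both chromosomes, and the background lies near the floor in the middle of chr8 and above it on most of distal chr15.

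The windows with the most untreated peaks on chr8 were chr8:124000001-125000000 with 123 ± 20.8 untreated peaks, chr8:72000001-73000000 with 122 ± 26.2, and chr8:125000001-126000000 with 117.0 ± 21.5 (SD, n = 9). The genes with the most covered bases there were Slc7a5, an amino acid transporter, Zfpm1, a cofactor of GATA factors, and Jph3, a junctophilin of neurons, in the first window. In the next they were Sugp2, Upf1, the helicase of nonsense-mediated decay, and Gatad2a, a subunit of the NuRD complex. In the last they were Ankrd11, a chromatin regulator, Fam38a, a mechanosensitive channel also known as Piezo1, and Tcf25. Peaks covered 32925 bases ± 11695 of Ankrd11 and 22822 bases ± 2701 of Slc7a5. The window at 72 Mb differed from the others in its background, which was at the floor (1.00 times), with 37.1% of peaks above it, against 82.4% and 78.8% in the distal pair.

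On chr15 the densest windows were chr15:79000001-80000000 with 144 ± 16.9 untreated peaks, chr15:76000001-77000000 with 126 ± 18.4, and chr15:81000001-82000000 with 111.0 ± 14.9. The genes with the most covered bases in the first were Cbx7, a Polycomb protein, Pick1, which binds glutamate receptors, and the phospholipase Pla2g6. In the next they were Plec, the cytolinker plectin, Heatr7a and the GTPase-activating protein gene Arhgap39. In the last they were Srebf2, a regulator of cholesterol synthesis, Xrcc6, which encodes the DNA repair protein Ku, and Pppde2. The mean covered length ran from 13135 bases in Arhgap39 to 29358 bases ± 3995 in Cbx7. All 3 windows had a background of 1.48 to 1.50 times the floor, and 12.7 to 16.3 RNase H peaks on average.

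The chromosomes fell into stretches by background, whose borders were drawn after the windows had been seen and which carry no test. On chr8, 0 to 50 Mb had a median background of 1.38 ± 0.0205 times the floor with 1.88 ± 0.405 untreated peaks per coding start. From 50 to 95 Mb the background was 1.00 ± 0.00784 times the floor, with 37.7% of peaks above it, and the density was 1.88 ± 0.368. From 95 Mb to the end the background was 1.21 ± 0.0265 and the density 3.05 ± 0.604. The proximal and middle stretches thus had the same density per coding start at different backgrounds. On chr15, 0 to 40 Mb had a background of 1.07 ± 0.0198 times the floor and 1.95 ± 0.599 peaks per coding start, and the rest had 1.49 ± 0.0455 and 2.67 ± 0.439 (SD, n = 9). In the low-background stretches alone, peaks per annotated start were 1.49 times the mean of the other autosomes on chr8 and 1.27 times on chr15, in place of 1.71 and 2.06. Within chr8 there were 1.18 untreated peaks per annotated start from 0 to 50 Mb, 1.32 from 50 to 95 Mb and 1.98 beyond. The stretch of chr8 with the highest background thus had the lowest density per annotated start. Median fold ranged only from 5.59 to 5.89 between the 5 stretches.

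RNase H libraries showed the same order of chromosomes per annotated start. On chr8 there were 710 RNase H peaks under the label siScramble, 370 under siDDX1 and 327 under siEXOSC3, which is 0.432, 0.225 and 0.199 per annotated start, and on chr15 there were 754, 373 and 369, or 0.674, 0.333 and 0.330. Chr15 ranked first and chr8 next in 3 of 3 libraries. Against the mean of the other autosomes this was 2.08 ± 0.124 times on chr8 and 3.25 ± 0.0890 times on chr15 (SD, n = 3), larger ratios than among untreated peaks. The library labelled siScramble had about as many of these peaks as the other two together, and the ratios were close in all 3. Per Mb of known sequence chr15 was highest too, with a mean of 4.96 RNase H peaks, but chr11 (3.85) was slightly above chr8 (3.76). Per Mb, the stretches with low background had the fewest RNase H peaks of their chromosomes, with 2.31 against 4.72 and 4.29 on chr8, and 2.93 against 6.15 on chr15. Per annotated start this held on chr8, with 0.201 against 0.383 and 0.265. It did not hold on chr15, with 0.459 in the low-background stretch against 0.442 in the rest. Median fold in these libraries was 5.50 ± 0.211 on chr8 and 5.33 ± 0.308 on chr15, below the 5.78 ± 0.347 of the mean of the other autosomes.

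Few untreated peaks overlapped a peak of their own group's RNase H library, but more did so on these chromosomes. The share was 2.71% ± 0.713 on chr8, 3.28% ± 0.910 on chr15 and 1.74% ± 0.398 on the other autosomes (SD, n = 9). It was higher on both than on the others in each library. RNase H peaks merged into 924 regions on chr8 and 1064 on chr15, of which 128 and 109 were called in 3 of 3 libraries. That was 1.03 and 1.09 such regions per Mb, against 0.520 on the other autosomes. The share of RNase H regions called in 3 of 3 was 13.9% on chr8, 10.2% on chr15 and 13.3% on the other autosomes. Of the regions so called, 64 of 128 on chr8, 56 of 109 on chr15 and 688 of 1365 over all autosomes overlapped no untreated peak.

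The highest of the regions called in 3 of 3 RNase H libraries was chr8:15519786-15520113, between genes, whose fold was 50.8 in siScramble, 64.8 in siDDX1 and 66.6 in siEXOSC3. This is the region of the ribosomal RNA letters, and it was called in 9 of 9 untreated libraries too. The others of chr8 lay in introns of Myo16, an unconventional myosin (40.9, 21.9 and 62.2), and of Vps37a, a subunit of the ESCRT machinery (27.3, 12.9 and 59.3). On chr15 the highest was chr15:18329832-18330784, far from the nearest gene Cdh10 (57.6, 48.1 and 81.5). The next lay near Glycam1 (41.4, 42.3 and 37.3), and the last lay 433761 bases from Myc (57.8, 33.7 and 41.4). All 6 regions had a peak in 8 or 9 untreated libraries, and all but the one near Myc had a background above the floor in at least 1 RNase H library.

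At gene starts, 31.4% ± 5.40 of protein-coding starts on chr8 and 31.2% ± 4.73 on chr15 had an untreated peak within 1 kb, against 21.6% ± 4.15 for the mean of the other autosomes (SD, n = 9). Both ranked between the first and the third of all autosomes in each library. A peak in 9 of 9 untreated libraries was found at 188 of 1082 starts on chr8 (17.4%) and at 146 of 797 on chr15 (18.3%). Over all 21418 protein-coding starts of the autosomes this share was 11.5%, and chr11 reached 18.3% as well. A peak in any RNase H library was found at 30 starts on chr8 (2.77%) and 49 on chr15 (6.15%), against 1.62% of all starts. These shares used the same peak lists as the choice of chromosomes and are read as a description.

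The highest peaks at starts of chr8 lay at Jund, which encodes a subunit of the AP-1 transcription factor, and at the overlapping model Gm11175, which shares the same peak. The fold at Jund was 67.4, 82.1 and 77.2 in siScramble, 74.9, 44.9 and 62.0 in siDDX1, and 67.2, 53.0 and 87.0 in siEXOSC3. Next came Rpl13, a protein of the large ribosomal subunit, with 41.2, 64.7 and 65.0, then 58.0, 37.9 and 57.7, and then 41.3, 39.0 and 75.8. Its start, with its 17 CG, also had a peak of fold 3.45 in the RNase H library labelled siScramble. The groups overlapped at both genes. Lower were 4932443I19Rik (median 38.6), Ankrd11 (38.4) and Gdf15 (37.6), a stress-induced secreted factor.

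On chr15 the highest start was that of Atf4, the transcription factor of the integrated stress response, with folds of 66.6, 86.4 and 73.0 in siScramble, 93.5, 59.4 and 68.3 in siDDX1, and 74.0, 66.1 and 85.3 in siEXOSC3. It had no peak in any RNase H library. Rpl30, a protein of the large ribosomal subunit, followed with 48.6, 71.2 and 72.3, then 62.8, 48.8 and 43.5, and then 64.0, 38.5 and 68.6. The groups overlapped at both genes. Slc38a2, an amino acid transporter (median 59.3), Ywhaz, a 14-3-3 protein (52.6), Rpl8 (49.6) and the translation initiation factor Eif4b (45.7) came next. Slc38a2 and Rpl8 each had a low peak in the RNase H library labelled siScramble, of fold 5.47 and 5.27.

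**Figure D4:**
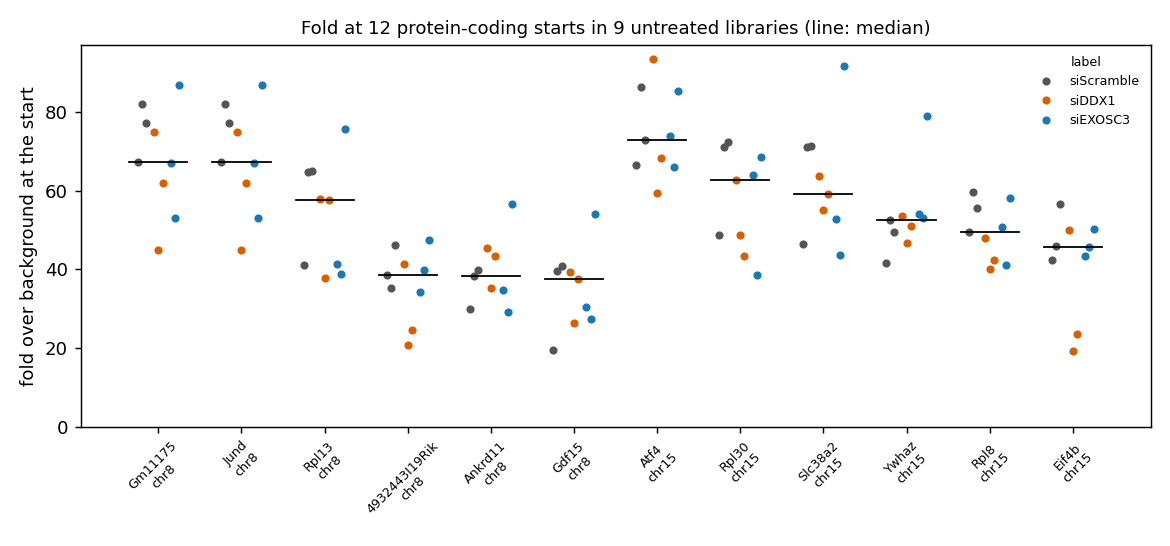
Fold over background of the peak at the start (y axis) of 12 protein-coding genes of chr8 and chr15 with the highest median among starts with a peak in 9 of 9 untreated libraries. Points are the 9 libraries coloured by label and lines are medians, from 37.6 (Gdf15) to 73.0 (Atf4), with the labelled groups overlapping at each gene.

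Wide merged regions with a peak in all untreated libraries spanned 20191 bases at Eif4ebp1, a repressor of cap-dependent translation, and 18887 bases at Dusp4, a MAP kinase phosphatase, on chr8. On chr15 such a region spanned 21391 bases at Plec. Slc7a5 (median fold 61.5) and the Heatr7a and Bop1 region (59.8, 37.1 to 114) were high within gene bodies. The annotation Gm20388 overlaps both the Slc7a5 region and the Rpl13 region, which are separate regions. Calls in each cannot be split between Gm20388 and the named gene.

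Gene lists showed which genes of these chromosomes carried a peak at the start. Of 20 genes of housekeeping and growth on each chromosome, 13 on chr8 and 10 on chr15 had one in 9 of 9 untreated libraries, against 11.5% of all starts, with a median of 9 and 8.5 libraries. Among them were Hmgb2 (median fold 25.2), Aars (18.0) and Calr (19.2) on chr8, and Eif3e (21.6), Tuba1b (20.3) and Rbx1 (16.7) on chr15. Ddx19a, Ddx19b and Kars on chr8 and Polr2k and Eif3l on chr15 had none. Of 10 neuronal and neuroblastoma genes on each, 3 and 3 had a peak in 9 of 9. On chr8 these were Hand2 (median 22.9), a factor of the sympathetic lineage from which neuroblastoma arises, Dcaf15 (14.0), an adaptor of a ubiquitin ligase, and the neuronal tubulin Tubb3 (9.20). On chr15 they were Myc (28.5, from 17.3 to 50.8), Prph (18.7), which encodes peripherin, and Tuba1a (16.3). Cell adhesion, channel and synaptic genes of this list, such as Cdh13, Cacna1a, Cntn1 and Kcnq3, had no peak at the start.

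A list of genes picked as markers of other tissues had almost no peak at the start. Of 62 such genes on chr8 and 59 on chr15, 61 and 59 had none in any untreated library, among them the defensins, carboxylesterases, keratins and Cdh1. The list also holds Mt3, Ly6h and Plat, which brain cells express. Starts without a peak were common, at 55.0% of coding starts on chr8, 55.2% on chr15 and 65.1% over all autosomes, and 6 and 7 of the 10 neuronal and neuroblastoma genes on each chromosome had none either. Plat, a plasminogen activator, had a peak in 1 untreated library (fold 4.73), and Krt83 and Krt2 had peaks in 2 and 1 of the RNase H libraries and in no untreated one. Of genes known from amplified or growth-related stretches, Irs2 (17.7) and Cul4a (17.9) on chr8 had a peak in 9 of 9 libraries, as did Myc, Ptk2 (9.43) and Recql4 (12.4) on chr15. Ing1 had one in 8 libraries and Asap1 in 7, and Ndrg1 and both annotated entries of Fgfr1 had none.

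Merging the peaks of the 9 untreated libraries gave 4839 regions on chr8 and 3687 on chr15. A peak in 9 of 9 libraries was found in 601 (12.4%) and 536 (14.5%) of them, against 10.8% of all 68567 autosomal regions. A single library called 43.2% of the regions of chr8 and 41.2% of those of chr15, against 45.3% of all. An RNase H peak overlapped 210 (4.34%) and 242 (6.56%), against 3.15% of all. Calls were thus shared between libraries slightly more often here than over all autosomes. Chr11 was alike, with 13.6% of its regions called in 9 of 9 libraries and 41.8% in a single library.

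Restriction sites were not denser. The 5 enzymes used to cut the DNA (BsrGI, EcoRI, HindIII, SspI and XbaI) had 1812 sites per Mb on chr8 and 1849 on chr15, against a mean of 1844 on the other autosomes, which ranks them 13 and 10 of 19. A site lay within 46.3% and 48.7% of untreated peaks, against 44.7%. Mean GC of the peaks was 49.7% ± 0.561 on chr8 and 49.5% ± 0.624 on chr15, against 48.9% ± 0.680 for the mean of the others.

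Whether depletion of DDX1 or EXOSC3 moved these chromosomes was asked with the share of autosomal peaks in each untreated library. On chr8 the share was 8.07%, 7.28% and 7.29% in siScramble, 7.36%, 7.87% and 7.60% in siDDX1, and 7.81%, 7.64% and 7.66% in siEXOSC3. On chr15 it was 6.98%, 6.00% and 5.77%, then 5.87%, 6.33% and 6.45%, and then 6.40%, 6.47% and 6.04%. The groups overlapped on both chromosomes. The means were 7.55% ± 0.450, 7.61% ± 0.256 and 7.70% ± 0.0920 on chr8, and 6.25% ± 0.644, 6.22% ± 0.308 and 6.30% ± 0.233 on chr15 (SD, n = 3). An exact permutation test of F over 280 ways to form the groups gave p = 0.779 for chr8 and p = 0.946 for chr15, with adjusted p = 0.934 and 0.946 over 6 tests.

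The ratio of median fold to the other autosomes gave p = 0.286 on chr8 and 0.314 on chr15 in the same exact test, with adjusted p = 0.921 for both. The ratio of median background was 1.18 ± 0.0246, 1.17 ± 0.0172 and 1.15 ± 0.0271 on chr8 in siScramble, siDDX1 and siEXOSC3, and 1.46 ± 0.0417, 1.44 ± 0.0123 and 1.46 ± 0.0359 on chr15 (SD, n = 3). Its exact permutation test gave p = 0.461 and 0.646, with adjusted p = 0.921 and 0.934. No difference between groups was larger than the spread between libraries, and these tests do not depend on which set of labels is right.

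**Figure D5:**
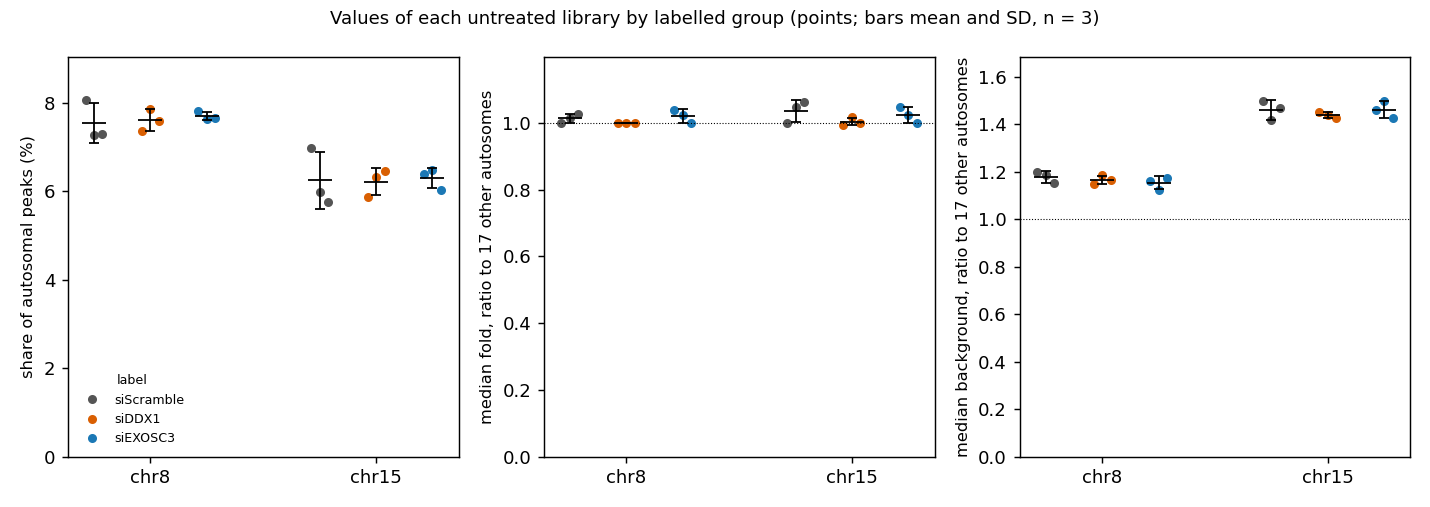
Share of autosomal peaks in percent (left), median fold as a ratio to the 17 other autosomes (middle) and median background as such a ratio (right) on chr8 and chr15, with 1 point per untreated library coloured by label and bars for the mean and SD (n = 3). The groups overlap on both chromosomes in all panels, fold lies near 1 (dotted line), and background lies near 1.17 on chr8 and 1.45 on chr15.

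Pairs of groups differed little. On chr8 the mean log2 share differed by 0.013 between siDDX1 and siScramble, by 0.031 between siEXOSC3 and siScramble, and by 0.018 between siEXOSC3 and siDDX1. On chr15 the differences were -0.0028, 0.017 and 0.020 in the same order. Exact two-sided permutation tests gave p from 0.6 to 1, with adjusted p = 1 for each of 6 tests, in a design of 3 against 3 libraries whose smallest possible p is 0.1.

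Regions called in all libraries of a group and in none of another made up a small share on both chromosomes and on all autosomes. With 3 of 3 libraries of one group against 0 of 3 of another, both chromosomes together had 15 regions for siDDX1 and not siScramble (0.212%, against 0.242% of all autosomal regions), and 43 for the reverse (0.608%, against 0.481%). For siEXOSC3 and not siScramble there were 56 (0.758%, against 0.634%), and for the reverse 40 (0.541%, against 0.598%). For siEXOSC3 and not siDDX1 there were 44 (0.618%, against 0.618%), and for the reverse 27 (0.380%, against 0.488%). The shares lay on both sides of the background, and comparisons that share a group are not independent. With 1 library left out, which asks for fewer calls, they reached 117 for siDDX1 and not siScramble (without siDDX1 replicate 2), and 242 for the reverse (without siScramble replicate 1). They reached 177 for siEXOSC3 and not siScramble (without siEXOSC3 replicate 1), and 249 for the reverse (without siScramble replicate 1). For siEXOSC3 and not siDDX1 they reached 190 (without siDDX1 replicate 1), and for the reverse 137 (without siDDX1 replicate 2). The share over all autosomes was not computed with a library left out.

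The regions with the highest fold among these were, apart from the one in Sbf1, also called in some or all libraries of the remaining group. For siDDX1 against siScramble they lay in an exon of Sipa1l2, a regulator of Rap signalling (12.2, 7.38 and 7.75), called in 2 of 3 siEXOSC3 libraries as well, and in an intron of Sbf1 (4.78, 5.90 and 6.21), called in none. In the reverse direction they lay in an intron of Gm17296 and 11108 bases from Trappc9. For siEXOSC3 against siScramble they lay at the start of the ribosomal RNA gene n-R5s142 (9.32, 8.56 and 9.65) and in an exon of Rapgef3, and in the reverse direction between genes, nearest to Csmd1 and Atp6v1c1. For siEXOSC3 against siDDX1 they lay in an intron of Dcaf15 (9.32, 12.2 and 14.8) and 1277 bases from Fam49b. These were called in 2 and 3 of 3 siScramble libraries as well. In the reverse direction they lay in an intron of Gnao1, a G protein of neurons (8.73, 4.30 and 7.14), and in an exon of Faim2, and 3 and 2 of 3 siScramble libraries called these too. A call has only 2 states, so that a change of signal in a region called everywhere does not appear here.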

How the data were processed

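Peak lists of 12 DRIP-seq libraries were analysed: 9 of untreated and 3 of RNase H-digested DNA. Per the study's methods, reads were aligned to mm9 with Bowtie2 2.4.4, sorted with SAMtools, and each library had its own MACS2 2.2.6 peak call against an input library. The authors tested recounted reads with DESeq2 and annotated regions with HOMER 4.11. Those counts and the 1 input library were not analysed here. The deposited lists give each summit's fold over background (a ratio), and p-values and q-values as −log10, all written by the peak caller of the authors. The score column that the authors deposited is a display value from the q-value and was left out.

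Because fold and −log10 p together fix the reads at a summit and the background under it, both were recovered as whole reads and a Poisson background within 0.001 of the listed −log10 p. The commonest background of a library is its floor, and a background of at least 1.01 times the floor counted as above it. This rests on MACS2's usual formulas and is no count of input reads. Gene starts came from GENCODE vM1 on NCBIM37, the same build as mm9, and a peak within 1 kb counted as at a start. Peaks of untreated libraries sharing at least 1 base were merged into regions. Motif windows were 200 bases.

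Groups followed the sample titles. Shares of peaks and ratios of medians were tested by exact permutation over libraries, with Benjamini-Hochberg adjustment over 6 tests across groups and 6 between pairs, and the threshold was 0.05. The scripts were tested on simulated data. The chromosomes, gene lists, stretches and tests were chosen with earlier results of these data known. Genes were named by rule: for each chromosome, the 6 highest starts among those with a peak in 9 of 9 untreated libraries, the 3 densest windows with 3 genes each, the 3 highest RNase H regions found in 3 of 3 libraries, the highest all-or-none region of each pair, the widest and highest merged regions, and the list members. Some of these items are not reported here. The number of peaks in a list limits precision, since read depth per library is not listed. Alternatives were a −log10 q of at least 5, equal numbers of peaks, joined neighbours, other denominators and windows, the replicate block and leaving out each library. Python 3.11.15, numpy 2.4.6, pandas 2.3.3, scipy 1.17.1, pysam 0.24.0 and matplotlib 3.10.9 were used.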

Additional observations from a re-analysis of the deposited data

How the results depend on the processing

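No test across groups (0 of 80 alternatives) or between pairs (0 of 66) passed the threshold, and the lowest adjusted p-values were 0.343 and 0.4. The direction of the pair differences, all near 0, was not stable. With a −log10 q of at least 5, the log2 difference in share became -0.024 for siEXOSC3 against siDDX1 on chr8, and 0.019 for siDDX1 against siScramble and -0.0035 for siEXOSC3 against siDDX1 on chr15. With equal numbers of peaks on chr8 siDDX1 against siScramble became -0.0063, siEXOSC3 against siScramble -0.011 and siEXOSC3 against siDDX1 -0.0044, and on chr15 siEXOSC3 against siScramble became -0.027. Joining peaks up to 1000 bases apart gave -0.0060 for siEXOSC3 against siDDX1 on chr8, and leaving out the 3 densest windows of each autosome gave 0.0017 for siDDX1 against siScramble on chr15.

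Leaving out 1 library, F across groups ranged from 0.0779 to 3.83 (share on chr8), 0.00066 to 1.76 (share on chr15), 1.19 to 6.70 (fold on chr8), 0.686 to 5.00 (fold on chr15), 0.288 to 2.02 (background on chr8) and 0.158 to 1.78 (background on chr15). The log2 differences ranged on chr8 from -0.012 to 0.062 (siDDX1 against siScramble), 0.0064 to 0.080 (siEXOSC3 against siScramble) and -0.0055 to 0.043 (siEXOSC3 against siDDX1), and on chr15 from -0.058 to 0.080, -0.038 to 0.099 and -0.021 to 0.050 in the same order. Their sign turned without siScramble replicate 1, 2 or 3, siDDX1 replicate 1 or 2, or siEXOSC3 replicate 2.

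Both chromosomes were chosen on density in these same lists, so the ratios of density to the other autosomes are a description here. They were 1.62 and 1.80 on chr8 and chr15 per coding start, and 1.52 and 1.55 per Mb. In the low-background stretches (added after seeing the data) they were 1.49 and 1.27, and without 1 library 1.69 to 1.72 and 2.02 to 2.08. In 2 Mb windows, 71.0% of windows on chr8 lay above the others' median.

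Counts of all-or-none regions depended on the rule. Requiring 50% of a region to be covered gave 35 for siEXOSC3 and not siScramble against 44 for the reverse, so that the order of this pair turned, and 25 for siEXOSC3 and not siDDX1. The share over all autosomal regions was not computed under these rules. A −log10 q of at least 5 gave 28 for siEXOSC3 and not siScramble, 19 for siScramble and not siEXOSC3, and 10 for siDDX1 and not siEXOSC3. Joined peaks gave 18 for siScramble and not siDDX1, 32 for siEXOSC3 and not siScramble, 23 for the reverse, and 27 for siEXOSC3 and not siDDX1. With 1 library left out, which asks for fewer calls, the counts were 22 to 117 (siDDX1 and not siScramble), 50 to 242 (siScramble and not siDDX1), 69 to 177 (siEXOSC3 and not siScramble), 61 to 249 (siScramble and not siEXOSC3), 47 to 190 (siEXOSC3 and not siDDX1) and 38 to 137 (siDDX1 and not siEXOSC3). The highest came without siScramble replicate 1, siDDX1 replicate 1 or 2, or siEXOSC3 replicate 1.

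Same-numbered libraries share only a number: their deviations over 1202 windows correlated at a median of -0.042 (2 of 9 pairs over 0.1), and 3 of 9 libraries correlated best with their own number. With the replicate number as a block, F for the share was 0.266 on chr8 and 0.0403 on chr15 (exact permutation, adjusted p = 0.967 and 0.972), and no other call changed.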

Other observations

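Other autosomes shared single features of chr8 and chr15. Chr11 had 65.6% of untreated peaks on a background above the floor, a median background of 1.13 times the floor, 2.18 peaks per coding start and 3.85 RNase H peaks per Mb. Chr13 had a like background (62.7% and 1.14 times the floor) with 0.790 untreated and 0.222 RNase H peaks per annotated start. Chr1 had 48.8% of peaks above the floor and, at 0.246, the most RNase H peaks per annotated start of the other 17. Chr14 had the lowest background (20.4% above the floor), 0.472 untreated peaks per annotated start and 0.965 RNase H peaks per Mb.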
